A study of Mus musculus with 12 samples.

Results

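The 47 genes described here encode the machinery that licenses and copies DNA: the origin recognition complex, the loading factors, the MCM helicase, the GINS complex and other helicase activators, the replicative polymerases, the sliding clamp and its loader, the single-strand binding complex, and enzymes that supply nucleotides and histones. With earlier results of these data known, they were chosen by symbol from a list of known replication genes, not by a cutoff on any measured value. Their GeneIDs were looked up in both deposited count tables, and all 47 were present among 27095 genes. An origin is licensed in G1 phase, when ORC, Cdc6 and Cdt1 load the MCM helicase onto DNA. In S phase Cdc45 and the GINS complex activate the helicase, and polymerases alpha, delta and epsilon copy the strands. Many genes of this machinery are known targets of E2F transcription factors and are known to be active in cycling cells. HBO1 (gene Kat7) is the acetyltransferase that places H3K14ac, and it was first found as a protein that binds ORC1.

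H3K14ac was mapped by ChIP-seq in neural stem and progenitor cells (NSPCs) taken from the cortices and ganglionic eminences of E14.5 mouse embryos. WT cells were grown either as neurospheres (proliferating) or, after dissociation, plated on laminin in cortical neuron medium (differentiating), and each stage has 3 WT H3K14ac libraries. Each stage also has 1 WT input library, 1 IgG library whose labels give no genotype, and 1 H3K14ac library from Hbo1 null cells. The input labels carry the replicate number 1, and each input was set against all 3 WT libraries of its stage. The series' description names 4 WT foetuses, and the labels do not say which culture or animal a replicate came from. The p-values therefore measure only the spread between these libraries, which may be technical. The inputs and IgG libraries carry the H3K14ac antibody in their antibody label, and time in differentiation medium, age of the cultures and the way Hbo1 was deleted are not given in the sources used here.

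Raw counts over gene bodies summed to between 3992697 and 7611239 in proliferating WT and to between 12549913 and 17074249 in differentiating WT. They summed to 11871306 and 12689734 in the inputs, 2526252 and 2771713 in IgG, and 64071 and 320601 in the null libraries. Values below are counts divided by the library's gene body total and multiplied by 1000000 (CPM) unless another scale is named, and a start window is the 1 kb at a gene's transcription start as the authors counted it. All start windows together held 4.56% to 4.90% of the gene body counts in proliferating WT, 3.24% to 3.68% in differentiating WT, and 3.36% and 3.23% in the inputs. Counts over 7 single-copy Y chromosome genes ran from 13.9 to 62.1 CPM in proliferating and from 14.9 to 275 CPM in differentiating WT libraries. They were 9.94 and 12.6 CPM in the inputs and 249 and 292 CPM in IgG. The make-up of the libraries by sex thus differs, and its part in the results was not tested. Pola1, on the X chromosome, is the only member on a sex chromosome. The body of Kat7 held 4 and 11 counts in the null libraries, or 62.4 and 34.3 CPM against 26.9 to 37.9 CPM in WT, which checks nothing about the deletion because the deleted part is not given.

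As a check of the cell label, the start windows of 11 neural stem and progenitor markers together reached 3.39 ± 0.49 times input in proliferating WT (SD, n = 3) and 1.73 ± 0.36 times in differentiating WT (SD, n = 3). IgG over the same windows stood at 1.66 times input in the proliferating and 0.84 times in the differentiating stage. In single genes, 9 of the 11 were above input in proliferating cells (81.8%), against 17.7% of all windows tested. Among them were Nes, an intermediate filament of neural progenitors, at a log2 difference of 2.24 (edgeR adjusted p = 0.000152) and the transcription factor Sox2 at 2.14 (edgeR adjusted p = 0.000339). Set against proliferating IgG none of the 10 markers tested passed, where 4.33% of all windows were higher. Estimates over IgG were above 0 in all 10, with a median of 1.10 against 0.86 over all windows. The marker lists were chosen with earlier results of these data known. The windows of 7 neuron markers summed to 1.28 ± 0.04 and 1.20 ± 0.22 times input in the proliferating and differentiating stage (SD, n = 3 each). Of the 3 neuron markers tested in proliferating cells, Map2 was above and Syt1 below input, the latter not without proliferating replicate 2 or 3 or differentiating replicate 2 or 3. The windows of 10 blood, microglia and endothelial markers summed to 0.62 to 0.86 times input in proliferating and 0.86 to 1.13 times in differentiating WT, none was at 0, and of the 8 tested Cd34 was below input in proliferating cells, though not without proliferating replicate 2 or 3. In bulk chromatin, fewer cells with the mark and less of the mark per cell cannot be told apart.

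Promoter sequences are shown first for the members on which the results turn: the 4 with the smallest p for proliferating WT over input (Orc3, Mcm3, Orc5 and Mcm7) and a pair with the lowest proliferating start windows (Lig1 and Pole2). Each runs 5′ to 3′ from 250 bases before to 50 bases after a RefSeq start (GRCm38.p6), on the minus strand except for Lig1 on the plus strand. Capitals mark matches on either strand to an E2F motif (TTTCCCGC, TTTCGCGC, TTTGCCGC or TTTGGCGC), the CCAAT box (CCAAT), to which NF-Y is known to bind, or the CHR element of cell cycle genes (TTTGAA or TTCGAA). The windows are chr4:34614893-34615192 for Orc3, chr1:20820263-20820562 for Mcm3, chr5:22550289-22550588 for Orc5, chr5:138171834-138172133 for Mcm7, chr7:13276925-13277224 for Lig1 and chr12:69228141-69228440 for Pole2.
Orc3: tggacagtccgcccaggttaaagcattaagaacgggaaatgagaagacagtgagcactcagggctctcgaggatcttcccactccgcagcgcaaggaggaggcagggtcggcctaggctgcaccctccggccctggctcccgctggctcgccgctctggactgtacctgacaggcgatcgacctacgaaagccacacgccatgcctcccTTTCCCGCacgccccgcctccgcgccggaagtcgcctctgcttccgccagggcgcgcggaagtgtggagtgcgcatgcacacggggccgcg
Mcm3: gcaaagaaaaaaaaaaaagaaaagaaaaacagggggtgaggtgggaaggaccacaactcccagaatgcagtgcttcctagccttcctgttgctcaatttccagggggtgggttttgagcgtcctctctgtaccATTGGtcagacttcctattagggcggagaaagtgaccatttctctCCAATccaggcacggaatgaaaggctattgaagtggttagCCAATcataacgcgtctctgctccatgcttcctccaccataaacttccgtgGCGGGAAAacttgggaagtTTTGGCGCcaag
Orc5: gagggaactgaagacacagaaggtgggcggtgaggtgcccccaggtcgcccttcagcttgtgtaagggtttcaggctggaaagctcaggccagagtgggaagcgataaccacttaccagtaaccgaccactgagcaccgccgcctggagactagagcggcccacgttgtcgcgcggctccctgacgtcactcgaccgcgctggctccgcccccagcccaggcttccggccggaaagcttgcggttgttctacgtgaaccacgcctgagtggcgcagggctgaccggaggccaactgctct
Mcm7: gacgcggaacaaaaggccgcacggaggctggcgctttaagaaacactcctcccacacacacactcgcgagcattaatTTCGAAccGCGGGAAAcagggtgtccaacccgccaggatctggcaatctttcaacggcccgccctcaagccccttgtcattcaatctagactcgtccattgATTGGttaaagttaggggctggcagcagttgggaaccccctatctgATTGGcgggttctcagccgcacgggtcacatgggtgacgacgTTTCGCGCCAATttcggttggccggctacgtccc
Lig1: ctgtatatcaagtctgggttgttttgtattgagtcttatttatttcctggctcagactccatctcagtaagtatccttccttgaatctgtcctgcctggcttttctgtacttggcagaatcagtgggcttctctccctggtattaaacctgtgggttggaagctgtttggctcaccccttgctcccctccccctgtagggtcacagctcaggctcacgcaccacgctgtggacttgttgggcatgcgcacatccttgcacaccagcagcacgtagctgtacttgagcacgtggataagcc
Pole2: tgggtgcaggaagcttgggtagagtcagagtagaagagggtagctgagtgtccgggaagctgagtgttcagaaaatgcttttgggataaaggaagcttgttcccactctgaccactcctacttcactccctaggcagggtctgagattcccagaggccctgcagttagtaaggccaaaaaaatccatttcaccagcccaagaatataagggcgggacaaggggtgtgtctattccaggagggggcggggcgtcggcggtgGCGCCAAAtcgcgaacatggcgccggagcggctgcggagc

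The Mcm3 and Mcm7 windows each held 2 E2F matches and 3 CCAAT boxes, and that of Mcm7 also held a CHR match, TTCGAA, which reads the same on both strands. In Mcm7 the E2F match TTTCGCGC, 16 bases after the start, overlaps a CCAAT box by 1 base. The Orc3 window held 1 E2F match 41 bases before the start, that of Pole2 held 1 E2F match on the minus strand 10 bases after it, and those of Orc5 and Lig1 held no match. Across the members, RefSeq gave a promoter for 39 of 47. E2F matches were present in 14 of the 39 (35.9%), against 2.89% of 18457 promoters of genes in the tables. CCAAT boxes were present in 24 (61.5%, against 39.0%) and CHR matches in 5 (12.8%, against 17.7%). These are shares of windows with the same length, and a match is a description of the sequence, not of binding.

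A CpG observed over expected ratio of at least 0.6 was found in 33 of the 39 member promoters (84.6%), against 48.0% of all. The 6 below it were Lig1, Mcm10, Mcm3, Pole2, Rrm1 and Tyms. Another gene started within 1000 bases upstream on the opposite strand for 11 of the 39 (28.2%), against 12.95% of all promoters. In the origin recognition complex this held for Orc1, Orc2, Orc3, Orc4 and Orc5, whose partners were Prpf38a, Gm15834, Rars2, Mbd5 and 6030443J06Rik. The start of Rars2, a mitochondrial arginyl-tRNA synthetase, lies 15 bases from that of Orc3. For 35 of the 39 members the span from the RefSeq start to the gene end came within 200 bases of the deposited gene length. It did not for Orc1, Slbp, Tyms and Cdc6, so the window the authors counted may start elsewhere in these 4. For Lig1 the deposited length fits the first start, with a CpG ratio of 0.255, and starts with ratios of 0.775 and 0.776 lie 1651 and 2090 bases downstream, farther than the 1 kb window reaches if it runs downstream of the first start.

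In proliferating WT cells the 47 start windows together stood above input, by about as much as all start windows did. They summed to 87.2, 84.4 and 97.2 CPM in the 3 proliferating WT libraries, against 60.1 CPM in input, or 1.45, 1.41 and 1.62 times input. The sums over all start windows of the tables were at 1.36, 1.46 and 1.44 times input in the same libraries. In differentiating WT the members summed to 59.1, 52.7 and 54.2 CPM against 60.2 CPM in input, or 0.98, 0.87 and 0.90 times. All start windows together were at 1.14, 1.00 and 1.06 times input there. The mean ratios of the members were thus 1.49 ± 0.11 and 0.92 ± 0.06 (SD, n = 3 each), and those of all windows 1.42 ± 0.06 and 1.07 ± 0.07. The 3 proliferating and the 3 differentiating libraries did not overlap on either measure.

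The control libraries bound these sums. IgG held 158 counts over the member windows in the proliferating stage, or 1.04 times input (95% exact Poisson interval of the IgG count 0.89 to 1.22), and 143 counts in the differentiating stage, or 0.86 times (0.72 to 1.01). The Hbo1 null libraries held 5 counts, or 1.30 times input (0.42 to 3.03), and 17 counts, or 0.88 times (0.51 to 1.41). At this depth the null interval in the proliferating stage contains the WT ratios, so a loss of the mark over these windows in null cells was not detectable. In 30 of the 47 members both null libraries held no count, against 72.0% of all windows. The intervals cover counting error of 1 library only.

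**Figure D1:**
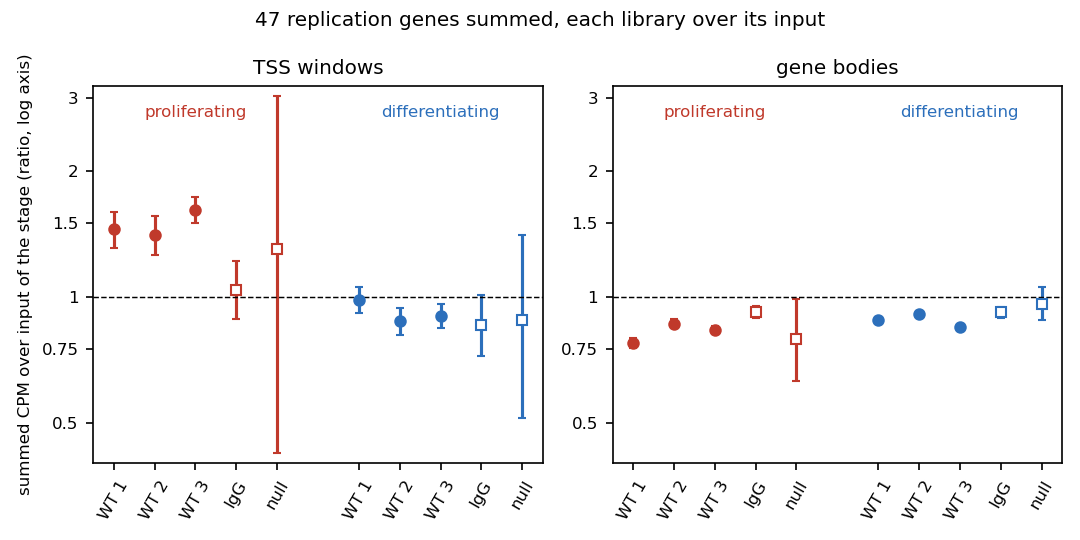
Summed CPM of the 47 replication genes over the input of the same stage (ratio, log axis), for start windows and gene bodies. Filled circles are WT H3K14ac libraries, open squares the IgG and Hbo1 null libraries, and bars 95% exact Poisson intervals of the library's own count. The proliferating WT windows lie at 1.41 to 1.62 and the differentiating ones at 0.87 to 0.98, while the gene bodies of all WT libraries lie below 1.

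By role, the origin recognition complex had the highest summed windows over input in proliferating cells. Its 6 genes, which encode the complex that marks origins, reached 1.91, 2.01 and 1.94 times input in proliferating WT, and then 1.40, 1.04 and 1.19 times in differentiating WT. The 6 MCM genes, subunits of the replicative helicase, reached 2.06, 1.53 and 1.89 times input and then 0.91, 0.90 and 0.74 times. The single-strand binding genes Rpa1 to Rpa3 were at 1.70 ± 0.53 and 0.78 ± 0.02 times input (SD, n = 3), and the nucleotide supply genes Rrm1, Rrm2 and Tyms at 1.57 ± 0.38 and 0.94 ± 0.10 times. The licensing factors Cdc6 and Cdt1 with their inhibitor Gmnn were at 1.41 ± 0.38 and 0.79 ± 0.22 times, and the clamp Pcna with the Rfc loader genes at 1.37 ± 0.21 and 0.99 ± 0.07 times. Lower in the proliferating stage were the helicase activation genes at 1.35 ± 0.27, Fen1 and Lig1 of Okazaki fragment joining at 1.26 ± 0.32, and the polymerase and primase genes at 1.23 ± 0.09 times input. The differentiating values of these 3 roles were 0.78 ± 0.16, 0.77 ± 0.02 and 0.95 ± 0.11. Chaf1a and Chaf1b of the chromatin assembly factor with Slbp, the histone mRNA binding protein, were at 1.36 ± 0.40 and 0.99 ± 0.20 times. Only the origin recognition complex, of these 10 roles, had a mean above input in differentiating cells, at 1.21 ± 0.18, and IgG over these windows stood at 1.17 times input there (95% exact Poisson interval 0.75 to 1.74). In proliferating cells IgG ranged from 0.49 times input in histone supply to 1.42 times in single-strand binding. It stood at 1.34 times in licensing, and at 1.38 times (0.98 to 1.90) it was above the WT mean in the polymerase and primase genes. In differentiating cells IgG was above the WT mean in 4 of the 10 roles. The order of the roles was not tested.

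Single windows held few counts, with a median of 7, 6 and 15 per member in proliferating WT and 15, 14 and 20 in differentiating WT. The highest mean in proliferating WT was that of Rfc2, a clamp loader subunit, with 2.42, 2.76 and 3.28 CPM against 1.52 in input, and 1.67, 0.86 and 1.41 CPM in differentiating WT against an input of 1.02. Orc5, an ORC subunit with an ATPase fold, had 2.86, 2.25 and 3.28 CPM against 1.01 in input, and then 1.75, 1.33 and 1.64 CPM against 1.97. In both genes every proliferating library lay above input and above every differentiating library. Of all windows, whatever their level, 40.3% had every proliferating library above input and 26.1% above every differentiating library. Slbp had 2.20, 2.25 and 3.81 CPM, and then 1.59, 1.10 and 1.93 CPM, with inputs of 1.60 and 1.02. Rrm2, the small subunit of ribonucleotide reductase, had 2.20, 3.01 and 2.63 CPM, and then 1.20, 0.86 and 1.05 CPM, with inputs of 1.68 and 1.34. Orc3, a core ORC subunit, had 2.20, 3.51 and 2.10 CPM, and then 2.07, 1.02 and 1.46 CPM, with inputs of 0.84 and 0.79. In Slbp and Rrm2, too, the stages did not overlap, and in Orc3 they nearly met, at 2.10 against 2.07 CPM. The genes of this paragraph were picked for their high proliferating means. With so few counts that choice itself favours proliferating values above input and above the differentiating ones. These patterns are thus not shown to be particular to these genes.

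The lowest mean in proliferating WT was that of Lig1, the ligase that seals Okazaki fragments, with 0.66, 1.00 and 1.05 CPM, all below its input of 1.35. In differentiating WT Lig1 had 1.35, 1.33 and 1.41 CPM with an input of 1.73. It was the only member in which every differentiating library exceeded every proliferating one, which held for 3.40% of all windows. Lig1 was picked for its low proliferating mean, and that choice favours this order. Pole2, an accessory subunit of polymerase epsilon, had 0.22, 1.00 and 1.58 CPM, with counts of 1, 4 and 12, and an input of 0.93. Pold2, an accessory subunit of polymerase delta, had 0.88, 1.00 and 1.18 CPM with an input of 0.84, and its counts were too low for the tests. Both overlapped with their differentiating values, which were 1.12 to 1.33 CPM in Pole2 and 0.55 to 1.23 CPM in Pold2. Against all 27095 windows, the members' mean proliferating level stood at a median percentile of 68.9, with a range of 21.6 to 86.9, and their differentiating level at 52.6, with a range of 12.1 to 94.0.

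**Figure D2:**
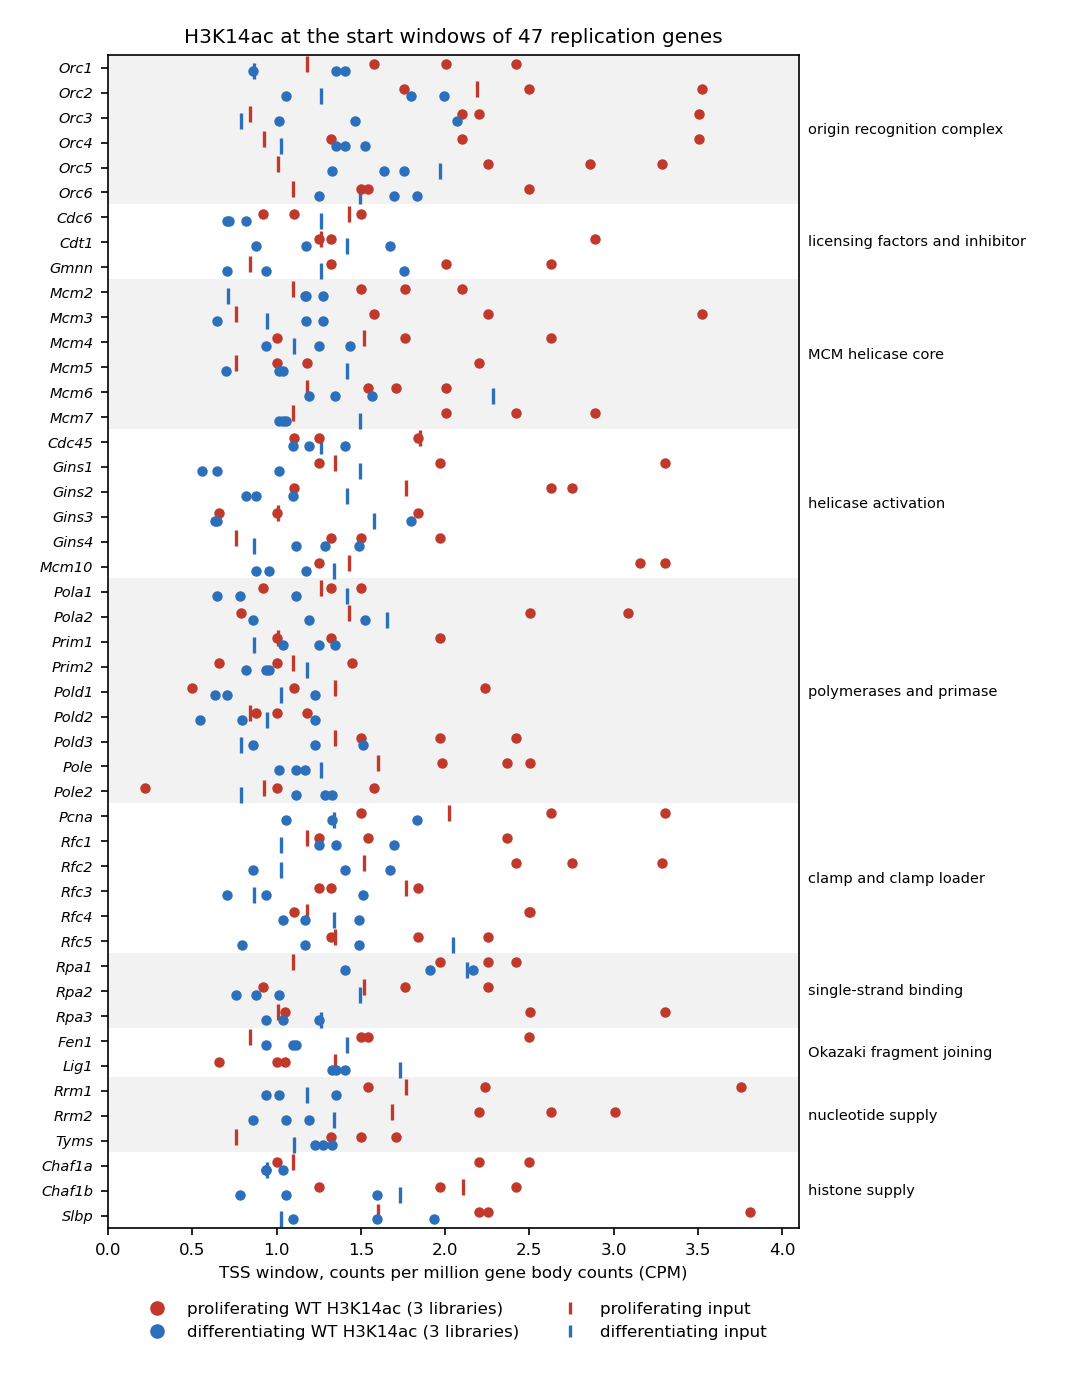
Start window counts of the 47 genes in CPM (horizontal axis), ordered by role. Points are the 3 WT H3K14ac libraries of each stage and ticks the input of that stage. The proliferating points of Rfc2, Orc5, Rrm2 and Mcm7 lie to the right of all their differentiating points, while those of Lig1 lie to the left.

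Tested gene by gene against input, 3 of the 46 members with enough counts rose above it in proliferating cells (6.52%), while 17.7% of all 21557 windows tested did. They were Orc3 at a log2 difference of 1.55 (SE 0.50, edgeR quasi-likelihood test, Benjamini-Hochberg adjusted p = 0.0162), Mcm3, an MCM helicase subunit, at 1.59 (SE 0.52, edgeR adjusted p = 0.0181), and Orc5 at 1.50 (SE 0.50, edgeR adjusted p = 0.0189). Mcm3 had 3.52, 2.25 and 1.58 CPM against 0.76 in input, all above it. The next by p did not pass: Mcm7 at 1.20 (edgeR adjusted p = 0.0557), Orc4 at 1.26 (0.0593), and Gmnn, which encodes geminin, the inhibitor of relicensing, at 1.30 (0.0609). Mcm7 had 2.42, 2.00 and 2.89 CPM against 1.10 in input, Orc4 had 1.32, 3.51 and 2.10 CPM against 0.93, and Gmnn had 1.32, 2.00 and 2.63 CPM against 0.84. No member was below input by the test, 11 were above it at an unadjusted p under 0.05, and the estimate was positive in 39 of 46. Over all 21557 windows, 6437 had an unadjusted p under 0.05 in either direction, and 70.6% had a positive estimate.

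The median log2 difference of the members was 0.63, against 0.45 over all windows tested. With TMM scaling, which centres the bulk of windows, these medians became 0.15 and −0.03, positive estimates fell to 28 of 46, no member passed, and the calls over all windows split into 1458 higher and 508 lower in place of 3825 and 113. DESeq2 also called no member, and gave no adjusted p for Mcm3. Each of the 3 calls was lost without a single proliferating library: that of Mcm3 without replicate 1 (log2 1.25, edgeR adjusted p = 0.132), that of Orc3 without replicate 2 (1.33, 0.0833) and that of Orc5 without replicate 3 (1.34, 0.113). Without differentiating replicate 1, which enters this fit through the shared spread, 5 members passed (10.9%), against 20.3% of all windows higher. Among CpG-rich promoters, 2 of 32 members and 30.9% of 8226 windows rose above input, with medians of 0.63 and 0.87. The members with an E2F match had a median of 0.55 and those without one 0.70, over 14 and 24 genes, of which 2 and 1 rose above input. Over all windows the medians were 0.88 with a match and 0.49 without. Among CpG-rich promoters alone these medians were 0.94 and 0.87, and 29.8% and 31.0% of the windows rose above input. The CpG-rich members had medians of 0.55 with a match and 0.70 without. All 3 genes called had every proliferating library above input, as did 23 of the 47 (48.9%) against 40.3% of all windows.

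By role, 2 of the 6 ORC genes and 1 of the 6 MCM genes passed, all 12 had positive estimates, and in 10 of the 12 every proliferating library was above input. The exceptions were Orc2 and Mcm4. Of all windows tested 17.7% passed as higher and 70.6% had positive estimates. In 40.3% of all windows every proliferating library was above input. Of the other roles none passed, and negative estimates were found for Cdc6, the loader of MCM, at −0.35, Cdc45 at −0.32 and Lig1 at −0.53, along with 4 smaller ones. At the divergent pairs starts lie as close as 6 bases, and whether the counts of a pair overlap was not tested. Of the 9 partners tested all had positive estimates, from 0.11 for 6030443J06Rik beside Orc5 to 1.24 for Prpf38a beside Orc1, and none passed. The partner of Orc3, Rars2, was at 0.63 (SE 0.49, edgeR adjusted p = 0.412).

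In differentiating cells none of the 46 members tested differed from input, where 0.0881% of all windows did (18 higher, or 0.0835%, and 1 lower, or 0.00464%), and DESeq2 called none of either. At an unadjusted p under 0.05, 2 members were below input: Gins1, a GINS subunit, at −1.02 (SE 0.47, edgeR adjusted p = 0.432) and Rfc5, a clamp loader subunit, at −0.82 (SE 0.40, edgeR adjusted p = 0.475). Of all 21557 windows, 2125 had an unadjusted p under 0.05 in either direction. Mcm6 stood at −0.74, Rpa2 at −0.77 and Pola1 at −0.77, and the largest positive estimate was that of Orc3 at 0.93 (SE 0.49, edgeR adjusted p = 0.526). The members' median was −0.18, against 0.09 over all windows. Of the 46 genes, 21 had a positive estimate in proliferating and a negative one in differentiating cells, 18 were positive in both, 6 negative in both and 1 the other way. These patterns were not counted over all windows, so they are not shown to be particular to the members. Of all windows 70.6% had a positive estimate in proliferating and 57.1% in differentiating cells.

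**Figure D3:**
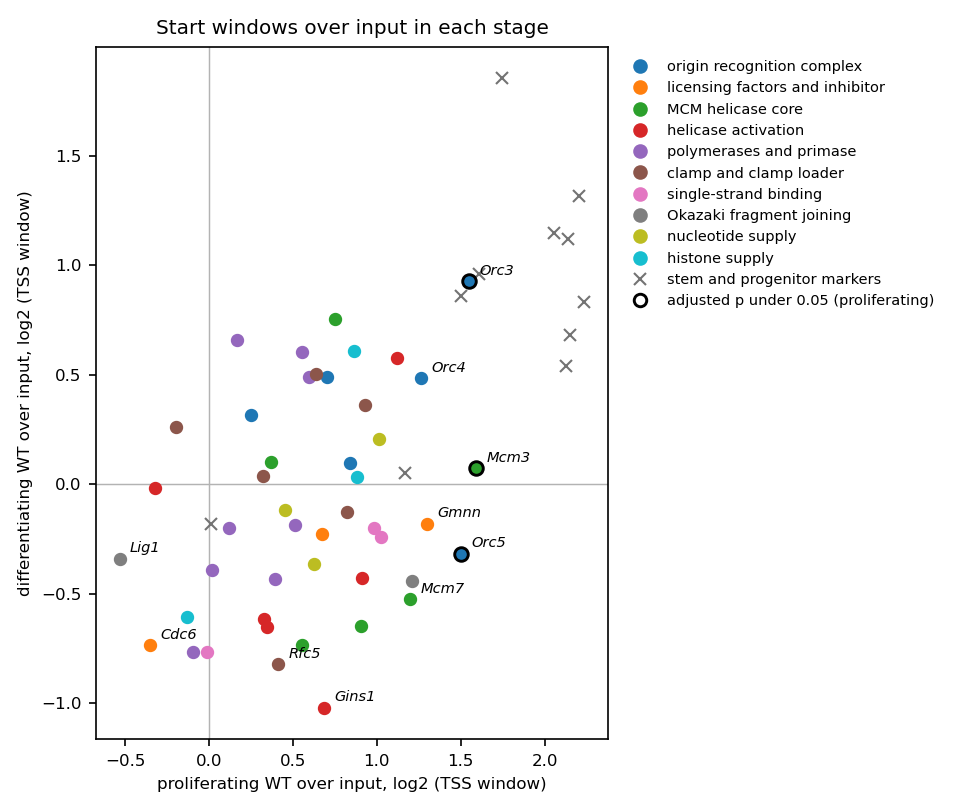
Log2 difference from input of each start window in proliferating (horizontal) and differentiating cells (vertical), coloured by role, with 11 stem and progenitor markers as crosses. Rings mark Orc3, Mcm3 and Orc5, which passed the test in proliferating cells. Most members lie right of 0 on the horizontal axis and near or below 0 on the vertical one, and 9 of the 11 crosses passed the proliferating test.

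Between the stages, measured on TMM scaling among the 6 WT libraries, none of the 43 members tested passed, while 6.6% of all 19477 windows did, 4.57% lower and 2.03% higher in differentiating cells. Cdc6, Pola1, Prim2 and Pold2 had too few counts. DESeq2 called no member either. At an unadjusted p under 0.05 edgeR gave 8 members lower and 1 higher, beside 4441 of all 19477 windows in either direction. Among the members Mcm10, a helicase activation factor, had the smallest p. It had 3.30, 1.25 and 3.15 CPM in proliferating and 0.96, 1.17 and 0.88 CPM in differentiating libraries. Its log2 difference, differentiating minus proliferating, was −0.94 (SE 0.33, edgeR adjusted p = 0.0541). Gins1 had 3.30, 1.25 and 1.97 CPM and then 0.56, 1.02 and 0.64 CPM, a log2 difference of −1.05 (SE 0.38, edgeR adjusted p = 0.0710). Both genes had every proliferating library above every differentiating one, and in both replicate 2 was the lowest of the proliferating libraries. Without it both passed, Mcm10 at −1.22 (edgeR adjusted p = 0.0223) and Gins1 at −1.29 (edgeR adjusted p = 0.0458).

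Lig1 was the gene with the third smallest p and the only one of these 6 on the other side, at a log2 difference of 1.05 (SE 0.41, edgeR adjusted p = 0.0984). Rrm2 stood at −0.82 (edgeR adjusted p = 0.105), Mcm7 at −0.78 (0.127) and Gins2 at −0.76 (0.175). Mcm7 had 2.00 to 2.89 CPM across the proliferating and 1.02 to 1.05 CPM across the differentiating libraries, without overlap. The median over the 43 members was −0.23 with 32 negative, against 0.02 over all windows, 51.6% of which had positive estimates. With gene body totals as library sizes the medians became −0.72 and −0.47, and 16 of 43 members (37.2%) were lower, among them Mcm3, Mcm7, Mcm10, Gins1, Gins2, Orc5, Pcna, Rrm1, Rrm2 and Slbp, while 25.7% of all windows were lower (4996, with 64 higher, in place of 890 lower and 395 higher). On that scale every proliferating library exceeded every differentiating one in 16 of the 47 members (34.0%) and in 26.1% of all windows, and the reverse held for 1 member and 3.40% of all windows.

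Where each stage was first set against its own input, the change between stages passed in none of the 46 members and in 0.0278% of all windows (6 lower, 0 higher), and DESeq2 called none. The largest estimates by p were Orc5 at −1.82 (SE 0.65, edgeR adjusted p = 0.262), Mcm7 at −1.72 (0.297), Gins1 at −1.70 (0.306), Fen1 at −1.66 (0.361), Mcm10 at −1.34 (0.435) and Gmnn at −1.48 (0.438). Fen1, the flap endonuclease of Okazaki fragments, had 1.54, 1.50 and 2.50 CPM and then 1.12, 1.10 and 0.94 CPM, with inputs of 0.84 and 1.42. In Orc5, Mcm7, Gins1, Fen1 and Gmnn the input itself was higher in the differentiating stage, so the estimate moves with the single inputs. At an unadjusted p under 0.05, 10 members were lower and 0 higher, and 39 of 46 estimates were negative, with a median of −0.72 against −0.37 over all windows. Of all 21557 windows, 2247 had an unadjusted p under 0.05 in either direction, and 31.2% had a positive estimate. This comparison shares its WT libraries with those above and is not separate evidence.

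Against IgG, which holds fewer counts, 35 members could be tested and none passed in either stage. In the proliferating stage 4.49% of all 13158 windows passed (4.33% higher and 0.16% lower, or 570 and 21 windows), and DESeq2 called no member. At an unadjusted p under 0.05, 4 members were above IgG, beside 3091 of all windows in either direction. These 4 members were Gins2 at 2.44 (SE 1.10, edgeR adjusted p = 0.153), Mcm10 at 1.75 (0.202), Orc6 at 2.27 (0.203) and Chaf1b at 2.23 (0.211), followed by Orc3 at 1.64 (0.252) and Mcm3 at 1.53 (0.293). Of these 6, Gins2, Orc6 and Chaf1b had 1 count each in IgG and Mcm10, Orc3 and Mcm3 had 2. The median of the members was 0.76 and that of all windows 0.86, and with TMM scaling they became −0.00039 and 0.10 with calls of 4 higher and 32 lower. In the differentiating stage 0.0228% of all windows passed, all lower than IgG, with a members' median of 0.13 against 0.54. Tyms and Chaf1b, the members with the smallest p there, had no count in IgG against 1.28 ± 0.05 and 1.14 ± 0.41 CPM in WT (SD, n = 3), so no fold is given. Slbp, Pole, Rfc5 and Gins2 followed, at 2.07, −1.18, −1.12 and −1.22, with adjusted p from 0.559 to 0.561 (edgeR).

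Across gene bodies the pattern ran the other way: the bodies of the replication genes held less than input. Summed over the 47, they were at 0.78, 0.86 and 0.83 times input in proliferating WT and 0.88, 0.91 and 0.85 times in differentiating WT. IgG was below input too, at 0.92 times in both stages, and the null libraries were at 0.79 (95% exact Poisson interval 0.63 to 0.99) and 0.96 times (0.88 to 1.05). In the proliferating stage 16 of 47 bodies fell below input and none rose (34.0%), while 9.27% of all 24848 bodies passed, 6.38% lower and 2.89% higher. The estimate was negative in 41 of 47, with a median of −0.49 against −0.12 over all bodies, 36.1% of which had positive estimates.

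The smallest p values belonged to Pole, the catalytic subunit of polymerase epsilon, and Chaf1a, the large subunit of the chromatin assembly factor. Per kb of gene, Pole had 0.76, 0.82 and 0.76 CPM against 1.27 in input and 1.17 in IgG, a log2 difference from input of −0.70 (SE 0.12, edgeR adjusted p = 0.0156). Chaf1a had 0.69, 0.64 and 0.77 CPM per kb against 1.24 in input and 1.12 in IgG, a difference of −0.82 (SE 0.13, edgeR adjusted p = 0.0156). In both genes the 3 libraries lay below both controls. Pola2, a subunit of the polymerase alpha complex, was at −0.77 (edgeR adjusted p = 0.0190), Rfc1, the large clamp loader subunit, at −0.61 (0.0192), Cdc45 at −0.71 (0.0203) and Mcm2 at −0.72 (0.0215). Cdc6 at −0.72, Gins4 at −0.75, Chaf1b at −0.64 and Pold3 at −0.51 had adjusted p from 0.0217 to 0.0248 (edgeR). The other 6 were Orc2, Rpa2, Pold1, Pole2, Mcm5 and Prim1. By role, 6 of the 9 polymerase and primase bodies fell, as did 2 of 3 in histone supply, 2 of 6 each in the MCM core and in helicase activation, and 1 each in 4 roles, while none of the Okazaki fragment and nucleotide supply genes passed.

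These values moved with gene length and with the choice of libraries. Among bodies of 10 to 30 kb, 11 of 23 members fell, with a median of −0.59, against 12.1% of all bodies of that length and a median of −0.20. Among those of 30 to 60 kb, 4 of 9 members fell, with a median of −0.49, against 11.3% and −0.15. Below 10 kb 0 of 11 members fell, with a median of −0.29, against 1.93% of all bodies and −0.11, and above 60 kb 1 of 4 fell, with a median of 0.03, against 3.02% and −0.02. The number of members lower was 0 without proliferating replicate 3, when no body of the whole table passed. It was 5 without differentiating replicate 2 (10.6%, all bodies 1.89%) and 9 without differentiating replicate 1 (19.1%, all bodies 3.16%). Without proliferating replicate 2 it was 10 (21.3%, all bodies 3.36%). It was 9 with TMM (786 bodies higher and 800 lower, in place of 718 and 1586) and 8 with DESeq2 (17.0%, all bodies 3.37%). With counts outside the start window, an alternative chosen after seeing the data, 26 members (55.3%) were lower against 13.1% of all bodies. With IgG in place of input, also chosen then, none passed, at a median of −0.40 against −0.04 and 40 of 47 negative. In 37 of 47 members all 3 proliferating libraries lay below input (78.7%, all bodies 40.5%), and in 32 of 47 they lay below IgG (68.1%, all bodies 35.3%).

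**Figure D4:**
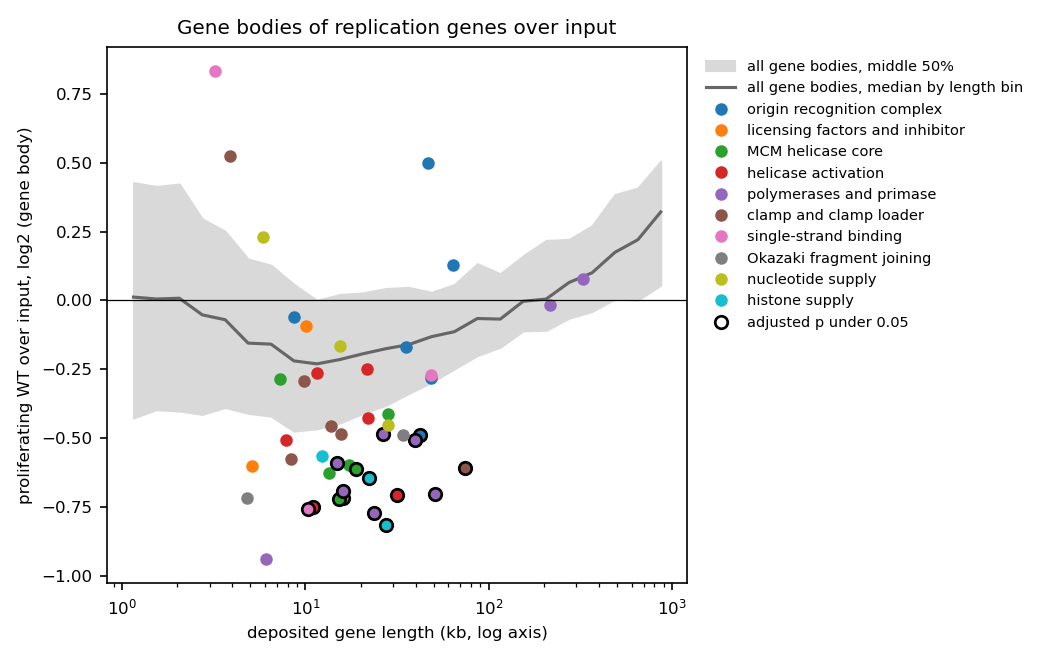
Log2 difference of proliferating WT from input over gene bodies against deposited gene length (kb, log axis), with all bodies as a median line and a band of their middle 50%. Rings mark the 16 members that passed the test. From 10 to 60 kb most members lie below the band, and the 3 highest points are Rpa3, Pcna and Orc4.

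In differentiating cells 4 of 47 bodies were below input (8.51%), against 1.33% of all bodies lower. They were Pola2 at −0.68 (SE 0.14, edgeR adjusted p = 0.0495), Pold1, the catalytic subunit of polymerase delta, at −0.75 (0.0495), Rfc5 at −0.81 (0.0496) and Mcm10 at −0.64 (0.0496). Chaf1a at −0.54 (0.0549) and Rpa1 at −0.41 (0.0564) came next and did not pass. All 4 calls lie just under the threshold. None was kept with TMM, without the count filter, without any single differentiating library, without proliferating replicate 3 or against IgG. Without proliferating replicate 1 there were 16 members lower (34.0%), but 9.81% of all bodies were then lower too. DESeq2 called Pola2 alone. The median was −0.35, against −0.16 over all bodies. In 38 of 47 members all 3 libraries lay below input (80.9%, all bodies 53.2%).

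Between the stages none of the 47 bodies passed, against 0.163% of all bodies (0.0366% higher and 0.126% lower in differentiating cells), and DESeq2 called none. At an unadjusted p under 0.05 there were 7 members higher and 2 lower in differentiating cells, beside 2756 of all 24564 bodies in either direction. The pair of lower members were Rrm2 at −0.65 (SE 0.16, edgeR adjusted p = 0.172) and Pcna, the sliding clamp, at −0.54 (SE 0.18, 0.316). Both are among the shortest members, in which the start window is a larger part of the body. The part of the window in their body values was not tested. Orc2 stood at 0.28 (0.254), Orc3 at 0.32 (0.300), Gins4 at 0.40 (0.324) and Chaf1a at 0.30 (0.328). The members' median was 0.10 and that of all bodies −0.0014. Start windows made up 7.24%, 6.30% and 7.52% of the members' body counts in proliferating WT, 4.36%, 3.76% and 4.17% in differentiating WT, and 3.87% and 3.91% in the inputs.

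Other genes of the pathway were counted from lists set out for this comparison, with earlier results of these data known. Of 41 other replication genes tested at start windows, 13 rose above input in proliferating cells, and their 44 windows summed to 1.85 ± 0.13 times input (SD, n = 3) and 1.07 ± 0.10 times in differentiating cells. The 4 with the smallest p were Top2b, a type II topoisomerase, at a log2 difference of 2.38 (edgeR adjusted p = 0.000144), Mcmbp, which binds MCM proteins, at 2.36 (0.000193), Top1 at 2.01 (0.000477) and Rif1, a regulator of replication timing, at 2.19 (0.000565). Of 13 genes of the E2F and RB family, 5 rose, with E2f3 at 2.05 (edgeR adjusted p = 0.000370), Rb1 at 2.02 (0.00133), E2f2 at 1.79 (0.00233) and E2f6 at 1.44 (0.0127) first by p. The call of E2f6 was lost with TMM (log2 0.95, edgeR adjusted p = 0.138) and with DESeq2 (adjusted p = 0.0662). Against 3 of 46 members, these counts are shares of 31.7% and 38.5%, beside the 17.7% of all windows, and the difference between the lists was not tested.

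Between the stages, E2f3 and E2f2 fell in differentiating cells by 1.67 (edgeR adjusted p = 8.46e-05) and 1.03 (edgeR adjusted p = 0.0163) on the log2 scale with TMM, and of 38 other replication genes Dtl, which targets Cdt1 for degradation, fell by 1.01 (edgeR adjusted p = 0.0315). Among the stem and progenitor markers Nes and Notch1 fell as well, by 1.12 and 0.86, while Cd34 rose by 1.53. Of the 3 neuron markers tested Syt1 rose by 2.08, and Map2 and Rbfox3 were at −0.41 and −0.31 and did not pass. Of the 7 genes that passed, E2f3 alone passed without each library in turn. The calls of Nes, Syt1, Cd34, E2f2, Notch1 and Dtl were lost without proliferating replicate 3. Those of Notch1 and Dtl were also lost without proliferating replicate 1 or differentiating replicate 2 or 3, that of E2f2 without differentiating replicate 2, and that of Cd34 without proliferating replicate 2 or with gene body totals as library sizes. Over gene bodies in proliferating cells, 8 of 44 other replication genes and 3 of 13 of the E2F and RB family fell below input and none rose (18.2% and 23.1%), beside the 16 of 47 members and 6.38% of all bodies. Of 11 stem and progenitor markers 7 rose there (63.6%), against 2.89% of all bodies. The 4 with the smallest p, Sox2, Sox1, Hes5 and Nes, did not pass with IgG in place of input or without proliferating replicate 3. Hes5 and Nes did not pass without proliferating replicate 2 or with counts outside the start window either (edgeR adjusted p = 0.0674 and 0.179 in the latter), nor did Nes without differentiating replicate 2.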

How the data were processed

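H3K14ac ChIP-seq, input and IgG libraries (12 in all) were deposited by the authors as raw counts per gene, in 1 table for start windows of 1 kb and 1 for gene bodies. Per the submitters' processing notes, reads were handled with bcl2fastq and counted with featureCounts on mm10, and the aligner, versions and treatment of multiply aligned reads are not given in the sources used here. The 24 files of single libraries held the same counts as these tables. RefSeq gave symbols for 25204 of 27095 GeneIDs, and coordinates and promoters are from GRCm38.p6.

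Counts were tested with edgeR 4.0.16 (R 4.3.3, limma 3.58.1) quasi-likelihood fits, two-sided, with 1 mean per group, Benjamini-Hochberg adjustment over all features tested, a threshold of 0.05, and a filter that kept features whose counts averaged 10 or more across the fitted libraries. SEs were derived from the F statistic. Stage comparisons used TMM among the 6 WT libraries. Comparisons with input or IgG used gene body totals as library sizes, and the single control library of a stage was assumed to vary like the WT replicates. DESeq2 1.42.0, other scalings, no count filter, the replicate block and leaving out each WT replicate were alternatives. The fits were run on simulated counts with changes put into a small part of all features tested. That part was smaller than the number of start windows that passed in the data between stages or for proliferating WT over input or IgG. Fewer true changes make the adjusted threshold stricter, so the shares called need not hold for the real fits. For start windows 22.4% of 2-fold changes were called between stages and 1.49% for proliferating WT over input. Of 4-fold changes 78.8% and 51.5% were called there. For the stage change relative to input 10.6% of 4-fold changes were called, and for proliferating WT over IgG 0%. Intervals on sums are 95% exact Poisson and cover counting error only.

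The members and gene lists were chosen with earlier results of these data known. Named genes are the members that passed (at most the 10 with the smallest p), or the 6 with the smallest p where fewer than 6 passed, those with the 5 highest and 3 lowest proliferating windows, and up to 4 genes of each other list by p, with other genes named only where a count called for it. Such other genes were chosen after their values were seen. The RefSeq start of a gene with several was the one whose span to the gene end came nearest to the deposited gene length.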

Additional observations from a re-analysis of the deposited data

Results flagged for a closer look

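The summed start windows of the 47 replication genes lay above input in every proliferating WT library and below input in every differentiating one, a change of −0.70 in the mean log2 ratio, and this difference was not tested. All start windows of the tables together lay above input in every library of both stages, at 1.36 to 1.46 times and 1.00 to 1.14 times.

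The same split of the libraries, also untested, was seen in 4 roles: −1.10 for the MCM helicase core, −0.79 for helicase activation, −1.07 for single-strand binding and −0.68 for Okazaki fragment joining. These sums rest on 76, 97, 43 and 26 counts in the proliferating input, and the CPM of the differentiating input was 1.24, 0.97, 1.35 and 1.44 times that of the proliferating one. On CPM alone the differentiating WT mean was 0.58, 0.56, 0.62 and 0.88 times the proliferating mean. The Okazaki fragment joining genes did not move together, with stage changes relative to input of −1.66 for Fen1 and 0.19 for Lig1 that did not pass (edgeR adjusted p = 0.361 and 0.951).

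The start window of E2f3, a transcription factor whose family is known to drive replication genes, changed between the stages relative to input by −3.01 on the log2 scale (SE 0.66, edgeR adjusted p = 0.0400). It missed the threshold with TMM (edgeR adjusted p = 0.210), without the count filter (0.0725), with DESeq2, and without any single WT library except differentiating replicate 1.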

How the results depend on the processing

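Under the alternatives to the main fits, apart from leaving out libraries, 55 of 105 counts of calls were 0 in both fits and say nothing about stability. Of the other 50, 15 stayed within 1.5 times the main count. With gene body totals as library sizes the stage comparison of start windows gave 16 members lower and 5060 of all windows called, and without the count filter 1 member, Mcm10, was lower. DESeq2 called 538 windows and 184 bodies between stages. For proliferating WT over input at start windows, TMM gave 0 members and 1966 windows and DESeq2 0 members and 1722 windows. For proliferating bodies over input, members lower were 9 with TMM, 8 with DESeq2 (1374 bodies called), 26 with counts outside the window (3573 bodies) and 0 with IgG in place of input (120 bodies). For differentiating bodies over input they were 0 with TMM and 0 without the filter (0 bodies in both), 1 with DESeq2 and 0 with IgG (74 bodies), and 961 bodies were called outside the window. Against IgG, Dnmt1 and Rnaseh2a, lower than input over their bodies in differentiating cells, stood at 0.041 and 0.35. For differentiating WT over input at start windows, 31 windows were called without the filter and 0 with DESeq2, and the stage change relative to input had 0 calls with TMM, without the filter and with DESeq2. For proliferating WT over IgG the windows called were 36 with TMM, 179 without the filter and 4 with DESeq2, and for differentiating WT over IgG 15 with TMM and 0 with DESeq2. The causes were not tested.

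Leaving out each WT library in turn gave 0 to 2 members lower and 331 to 1256 windows called between stages, and 3 to 66 bodies. Proliferating WT over input gave 2 to 5 members higher and 2531 to 4339 windows, and over bodies 0 to 22 members lower, 0 to 1 higher and 0 to 5437 bodies. Differentiating WT over input gave 1 to 23 windows, and over bodies 0 to 16 members lower and 0 to 3710 bodies. The stage change relative to input gave 0 to 65 windows, and the comparisons with IgG 292 to 820 and 3 to 5 windows.

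Whether replicate numbers pair the libraries is not given by the labels. The deviations of same-numbered libraries from their stage means had r of −0.012, −0.033 and 0.0040 over start windows. Over bodies they had r of −0.12, 0.20 and −0.19, and not every library correlated best with its own number. With few counts per window and means over so few libraries, these correlations cannot show whether the libraries are paired. With the replicate block 787 windows were called between stages in place of 1285, with 0 members, and 38 bodies in place of 40, and the window of Notch1 did not pass (log2 −0.89, edgeR adjusted p = 0.0644).

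With a median of 6 to 20 counts per member window in a WT library and 3 in IgG, differences in single windows were detectable only in part: estimates of 1.30 over input (Gmnn) and 2.44 over IgG (Gins2) did not pass. In simulated counts 51.5% of 4-fold changes were called for proliferating WT over input and 0% for proliferating WT over IgG. Fewer windows were changed there than passed in the data, so these shares do not measure detection in the real fits. A member that did not pass is not shown to be unchanged.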
